A study of Bos taurus with 10 samples.

Results

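The window described here is the stretch of bovine chromosome 21 from 66800000 to 68600000 (assembly UMD3.1) that holds the imprinted DLK1-DIO3 domain. Its members were all cytosines of the window with at least 8 reads in a library. There were 5196 of them among the 1868049 cytosines of the whole series, of which 1226 were CG sites, 1462 were in CHG and 2508 in CHH context (H is A, C or T). Methylation was measured by reduced representation bisulphite sequencing (RRBS), in which MspI cuts at CCGG and short CG-rich fragments are sequenced after bisulphite treatment. The study compared 10 bovine tissues with 1 library each. Skeletal muscle, uterus (intercaruncular), nucleated blood cells and the 90 d lactating mammary gland came from adult females, and testis from an adult male. Frontal cortex, ileum, abomasum and the mammary gland parenchyma came from juvenile females, and rumen from a male fetus. The study drew the tissues from 1 Hereford cow and animals related to her, and which tissues share an animal is not given in the labels. No tissue was treated, and a whole tissue mixes cell types, so a level is an average over cells and over both alleles.

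The DLK1-DIO3 domain is one of the best known imprinted regions of mammals. DLK1 (a transmembrane ligand related to those of Notch, known for its part in fat and muscle development), the retrotransposon-derived RTL1 and DIO3 (a deiodinase that inactivates thyroid hormone) are expressed mainly from the paternal chromosome. The long noncoding RNAs MEG3, MEG8 and MEG9 and clusters of miRNAs and snoRNAs are expressed from the maternal one, and the callipyge muscle phenotype of sheep maps to this domain. Imprinting rests on a germline control region between DLK1 and MEG3 that is methylated in sperm and on the paternal allele. A CG site methylated on 1 of 2 alleles in every cell gives a level near 0.50 in each somatic tissue. In RefSeq (bovine assembly ARS-UCD2.0) the genes ran in the order BEGAIN, DLK1, MEG3, RTL1, MEG8, MEG9, DIO3OS, DIO3 and PPP2R5C, and 109 genes lay between DLK1 and DIO3, of which 59 were miRNAs, 33 snoRNAs and 9 long noncoding RNAs. That assembly is not the one of the files, so no site was assigned to a gene, exon or intron, and sites are given by UMD3.1 position only.

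The results turned on the covered stretches of 9 MspI fragments, called fragments here. They are printed because they held the CG sites that varied most between tissues or that differed in testis. Fragment H is printed for sites that stood apart from their neighbours. The sequences were assembled from the 5 bases deposited around each cytosine. They are shown 5′ to 3′ on the forward strand, and capitals mark the CG dyads with at least 1 covered cytosine.
Fragment A (chr21:66857272-66857323): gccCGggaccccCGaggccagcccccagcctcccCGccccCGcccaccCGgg
Fragment B (chr21:66882073-66882124): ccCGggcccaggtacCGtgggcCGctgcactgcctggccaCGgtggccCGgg
Fragment C (chr21:67225607-67225655): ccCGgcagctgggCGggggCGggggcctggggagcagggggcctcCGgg
Fragment D (chr21:67275245-67275294): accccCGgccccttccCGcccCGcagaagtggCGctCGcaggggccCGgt
Fragment E (chr21:67930695-67930740): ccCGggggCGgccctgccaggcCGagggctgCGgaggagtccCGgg
Fragment F (chr21:68047194-68047238): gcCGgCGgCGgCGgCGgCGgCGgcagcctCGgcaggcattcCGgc
Fragment G (chr21:68106532-68106574): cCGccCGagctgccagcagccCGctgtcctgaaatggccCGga
Fragment H (chr21:68507388-68507440): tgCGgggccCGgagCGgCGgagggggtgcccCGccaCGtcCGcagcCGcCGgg
Fragment I (chr21:68529365-68529414): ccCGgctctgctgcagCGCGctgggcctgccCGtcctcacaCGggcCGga
Fragment F is a run of GGC repeats, and the other fragments have between 4 and 9 CG dyads. Fragment G holds only 1 CCGG, at its right end, so it is a part of an MspI fragment. Fragment H begins before its first CCGG.

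Coverage of the window differed between libraries. The libraries covered from 876 cytosines (ileum) to 3558 (testis), and from 268 to 716 CG sites. The median number of reads at a CG site was 9 in abomasum, between 14.5 and 30 in 8 tissues, and 38 in ileum. Of the 1226 CG sites, 83 were covered in all 10 tissues and 331 in at least 5. Another 801 were covered in 1 tissue only, of which 445 in testis and 307 in abomasum. Sites covered only in testis had a mean level of 61.6 % and a median of 74.1 %, against 27.6 % and 2.94 % for the 271 testis sites also covered elsewhere, so a mean over all covered sites of testis is not set beside that of another tissue. Reads of an RRBS fragment share their ends, neighbouring CG sites of a fragment are read by the same reads, and intervals given here (95 % Wilson intervals) cover counting error only.

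CG methylation in the window was mostly near 0 or near complete (the plot of levels by position). Of the 331 CG sites covered in at least 5 tissues, 183 (55.3 %) had a median level over tissues below 20 % and 103 (31.1 %) above 80 %. Over all autosomes these shares were 63.2 % and 23.7 %, so at these sites the window had fewer low and more high medians. The 200 kb at the start of the window held 113 of these sites with a median of 0 %, and the last 200 kb held 57 with a median of 91.1 %. Between 67400000 and 67600000 no CG site was covered in 5 tissues, and the 46 CG sites found there, 29 of them in testis, came from few libraries.

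**Figure D1:**
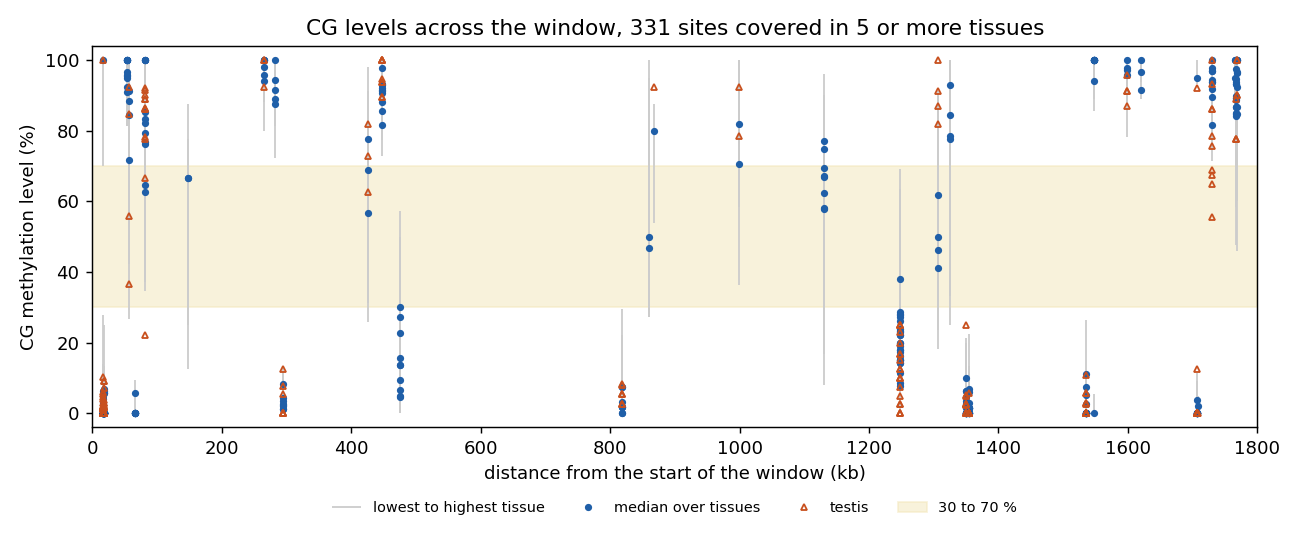
Methylation level (%) of the 331 CG sites covered in at least 5 tissues against distance from the start of the window (kb). Blue points are medians over the covering tissues other than testis. Grey lines run from the lowest to the highest of these tissues, and open triangles are testis. With testis counted in, most medians lie below 20 % (183 sites) or above 80 % (103 sites). The points inside the shaded band of 30 to 70 % carry long grey lines.

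At the 83 CG sites covered in all 10 tissues, the mean level of the window was lower than that of other autosomal CG sites in 10 of 10 tissues. It was 19.9 % ± 1.43 (SD, n = 10 tissues), against 28.2 % ± 2.02 at 51144 sites elsewhere, a difference of -8.37 ± 2.33 points (two-sided p = 0.00195 by exact permutation of signs over tissues, the smallest p this design allows). The permutation takes the tissues as independent, although they came from related animals. It uses the same sites in every tissue, so it does not measure the spread between sites or between animals. Without abomasum the difference was -4.75 points, over 200 sites. When each tissue was averaged over every CG site it covered, the difference was 5.33 points in the other direction (p = 0.0176, the same exact permutation), so the lower level holds for commonly covered sites only. Within tissues, the 83 sites averaged between 17.6 % (frontal cortex) and 22.2 % (nucleated blood cells). The share of window sites at 30 to 70 % was 6.39 % ± 4.33 against 8.76 % ± 2.5 elsewhere (exact permutation p = 0.252). This difference was -4.76 points at a minimum of 10 reads (exact permutation p = 0.0293), -13.2 points when sites were weighted by reads (exact permutation p = 0.00195), and -0.11 points without testis.

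No run of half-methylated CG sites was found among the covered sites of the window. A site was eligible where at least 5 tissues covered it, and was called half-methylated where at least 70 % of its covering tissues had levels of 0.30 to 0.70. A run was at least 3 such sites in a row among eligible sites, with gaps of at most 300 bp. In the window 1 of 331 eligible sites passed, against 2.74 % of 135203 autosomal sites, and 0 sites were in runs, against 0.535 % of the autosomal sites in 182 runs. The passing site, 67660682 on the forward strand, was read in 7 tissues. Its levels were 27.3 % in rumen, 33.3 % in mammary gland parenchyma, 40.0 % in skeletal muscle, 50 % in uterus, 58.3 % in ileum, 63.6 % in frontal cortex and 95 % in nucleated blood cells. So even this site spanned 27.3 to 95 %. Counted by tissue, 82 of the 331 sites were at 30 to 70 % in at least 1 tissue, 29 in at least 3, 4 in at least 6 and 0 in 7 or more. Autosomal shares were not computed for this count by tissue, so it is not set against other sites. The control region between DLK1 and MEG3 was not placed on UMD3.1. Whether any of the 331 sites lies in it is thus not known, and these counts do not describe its level.

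Intermediate medians in the window came from tissues that differed. A median level of 30 to 70 % was found at 20 of the 331 sites (6.04 %), against 7.4 % of autosomal sites. At these 20 sites the range between the lowest and highest tissue had a median of 66.6 points (33.9 to 82), while the same class of autosomal sites had a median range of 52.6 points. With the required share of tissues lowered from 70 % to 50 %, 13 sites passed and 1 run appeared, the 4 sites of fragment G, whose tissue means ran from 22.5 to 90.0 %.

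**Figure D2:**
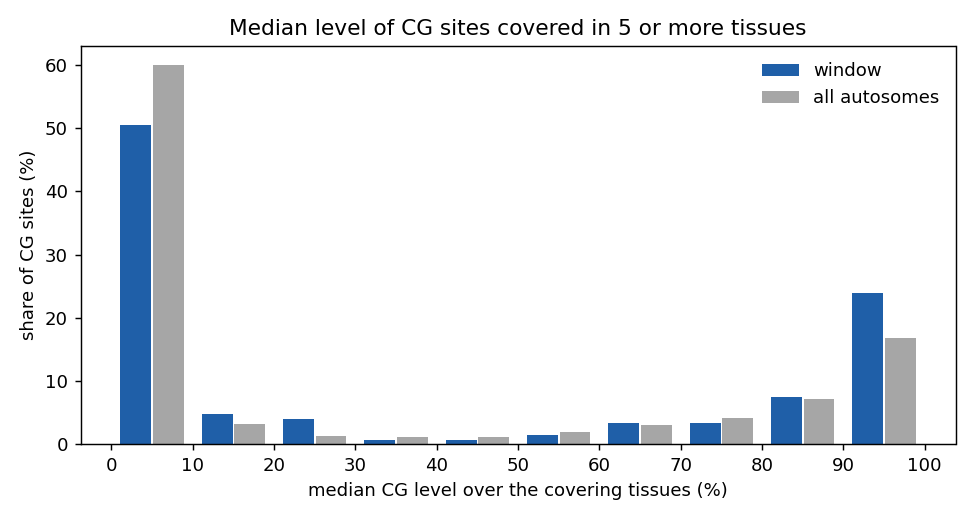
Share of CG sites (%) in each class of 10 points of median level over tissues, for the window (331 sites, blue) and all autosomes (135203 sites, grey). Both sets pile up at the 2 ends, and the window has 6.04 % of its sites at 30 to 70 % against 7.4 %.

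Grouped by distance (CG sites at most 300 bp apart), the window held 147 clusters of at least 3 CG sites, together 1122 sites. Only 25 of them had at least 3 sites covered in 7 or more tissues, and 69 were covered in testis only and 26 in abomasum only. Of the 25, 8 had a mean below 20 % in each tissue with all sites covered, 8 a mean above 80 % in each, and 0 lay at 30 to 70 % in each. The other 9 crossed these bounds, and in 3 of them (fragments C, E and G) the tissues differed by more than 40 points.

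**Figure D3:**
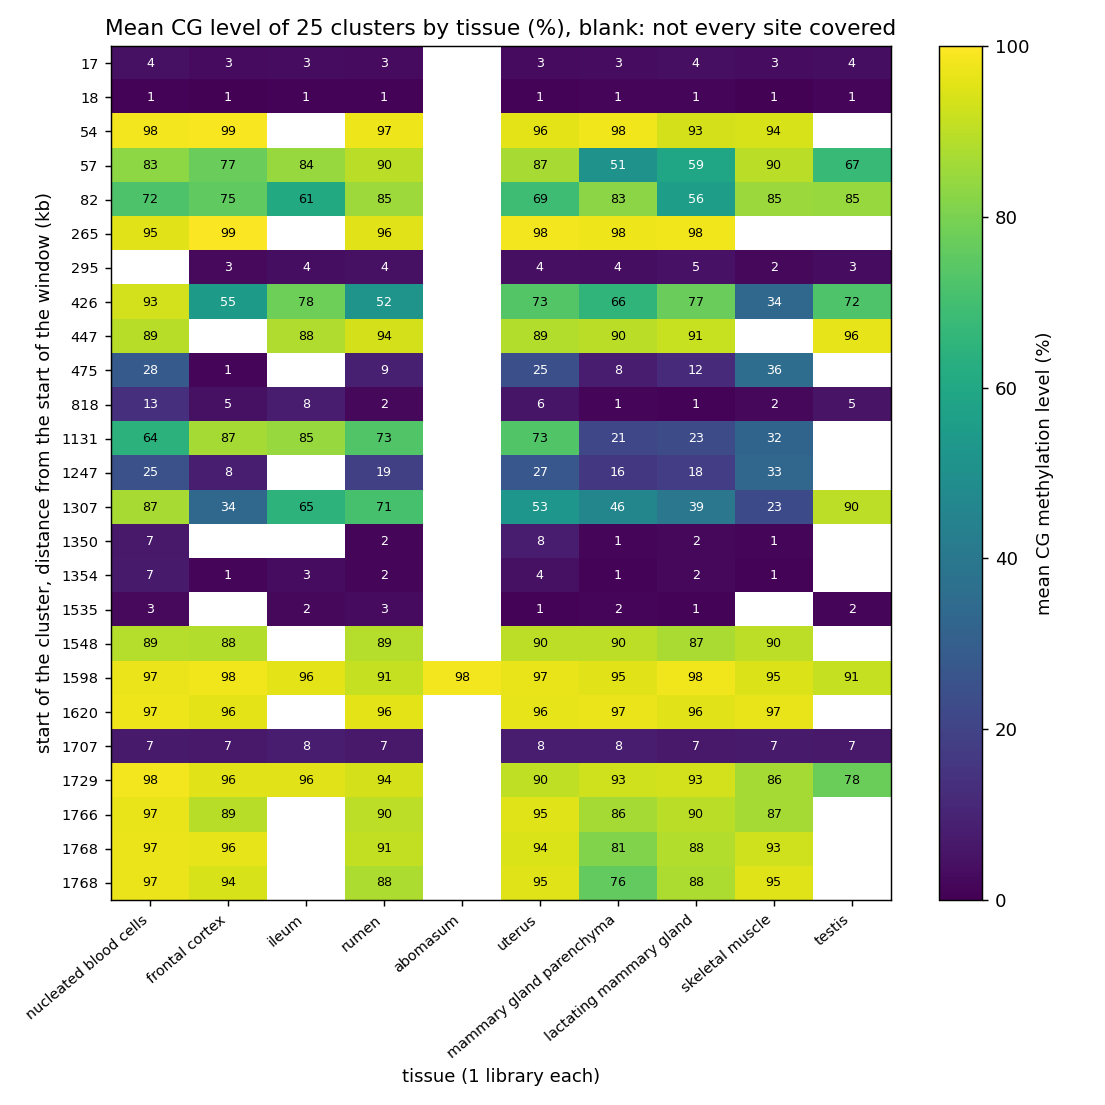
Mean CG level (%) of the 25 clusters (rows, by distance of their start from the start of the window in kb) in each tissue (columns, 1 library each). A tissue is blank where it did not cover every site of the cluster that at least 7 tissues covered, as in all rows but 1 of abomasum. 8 rows are dark throughout and 8 are yellow throughout, and the rows at 426, 1131 and 1307 kb change most between columns.

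The cluster of fragment G showed the widest spread and the largest departure of testis. Its 4 CG sites (68106534 to 68106572, all read on the reverse strand and thus by the same reads) averaged 22.5 % in skeletal muscle, 33.8 % in frontal cortex, 39.5 % in lactating mammary gland, 46.1 % in mammary gland parenchyma and 52.7 % in uterus. They averaged 64.7 % in ileum, 71.0 % in rumen, 87.1 % in nucleated blood cells and 90.0 % in testis. The tissues thus formed a graded series from muscle to testis. Abomasum covered 3 of the sites with 8 reads each and had 62.5, 25 and 75 %. At 68106554, in the middle of the printed stretch, testis had 23 methylated of 23 reads (100 %, interval 85.7 to 100), blood 91.2 % of 68 reads (82.1 to 95.9) and muscle 24.2 % of 33 reads (12.8 to 41.0). The intervals of testis and muscle did not overlap, whereas those of testis and blood did. By Fisher's exact test on reads this site differed between testis and muscle by 75.8 points (q = 9.12e-07), and it was called in 10 of 45 pairs of tissues. The q value is adjusted by Benjamini-Hochberg over all cytosines of that pair, and compares 2 libraries.

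In the cluster of fragment E both mammary libraries and skeletal muscle were low. The 8 CG sites of the fragment averaged 21.4 % in mammary gland parenchyma, 22.7 % in lactating mammary gland and 32.1 % in skeletal muscle. The others were at 64.2 % (nucleated blood cells), 73.0 % (rumen), 73.0 % (uterus), 84.6 % (ileum) and 86.6 % (frontal cortex), and testis covered none of these 8 sites. So 3 tissues were low and 5 were high, with no tissue mean between 32.1 and 64.2 %. The first site, 67930697, was at 20.8 % (24 reads) in mammary gland parenchyma and 88.9 % (36 reads) in frontal cortex, a difference of -68.1 points (Fisher's exact test, q = 8.07e-05). The reverse strand of this fragment gave like values, with 27.3 % in mammary gland parenchyma and 84.0 % in frontal cortex at 67930704.

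**Figure D4:**
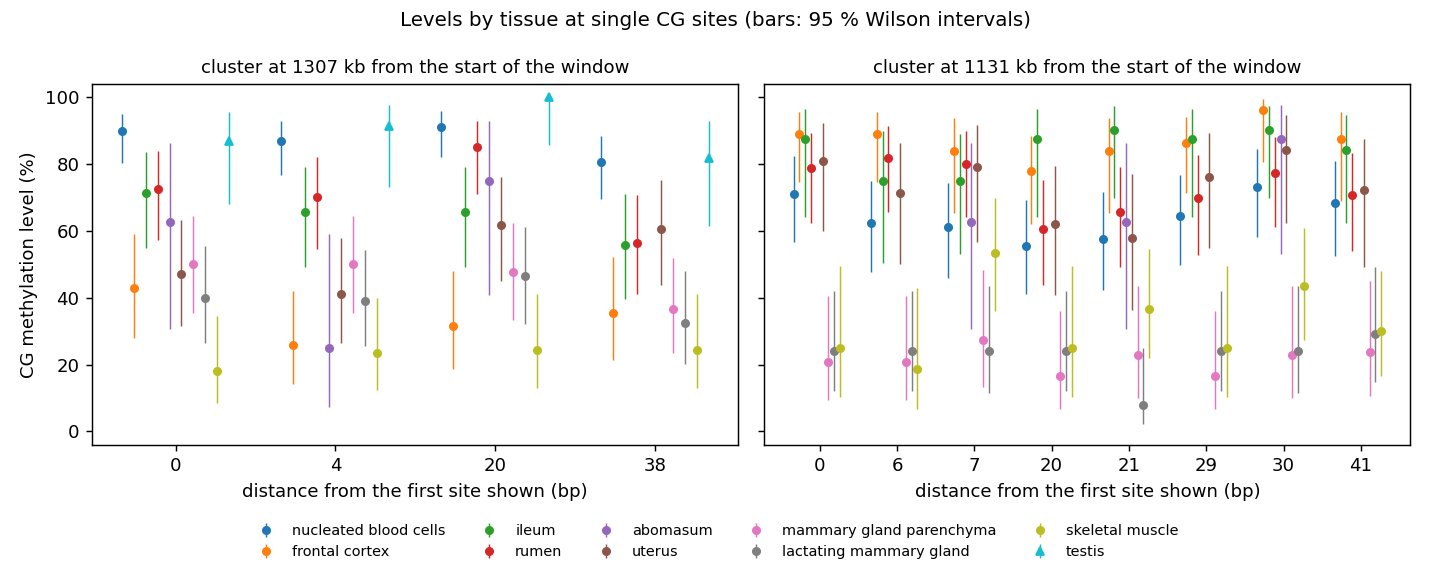
Level (%) at each CG site covered in at least 7 tissues in the clusters of fragment G (left) and fragment E (right) against distance from the first site (bp), 1 point a tissue with 95 % Wilson intervals. On the left testis (triangles, 81.8 to 100 %) and nucleated blood cells stay on top and skeletal muscle at the bottom, and on the right the 2 mammary libraries and muscle lie below the 5 other tissues with all sites.

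The cluster of fragment C repeated the order of blood and muscle. Its 3 commonly covered sites averaged 33.6 % in skeletal muscle, 51.7 % in rumen, 54.6 % in frontal cortex and 65.5 % in mammary gland parenchyma. Testis was at 72.4 %, uterus at 73.1 %, lactating mammary gland at 77.3 %, ileum at 78.0 % and nucleated blood cells at 93.0 %. At 67225621 muscle had 43.8 % of 32 reads and blood 98.0 % of 49 reads (q = 6.81e-06, Fisher's exact test).

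Fragment A separated the mammary libraries and testis from the rest. Its 4 commonly covered sites averaged 50.8 % in mammary gland parenchyma, 58.9 % in lactating mammary gland and 67.3 % in testis, against 77.1 to 89.5 % in the 6 other tissues that covered them. The difference was widest at the first 2 sites of the fragment. At 66857284 the levels were 26.7 % in mammary gland parenchyma, 28.3 % in lactating mammary gland, 36.5 % in testis, 54.2 % in frontal cortex, and 71.1 to 87.1 % in the 5 others. At 66857306, 22 bp further on, mammary gland parenchyma was again lowest with 70 %, and at 66857312 with 60 %. Lactating mammary gland and testis lay at these 2 sites within the range of the 6 others, with testis at 92.3 and 84.6 %. Testis was called lower at the first 2 sites in 3 pairs, for example than rumen at 66857284 by -50.6 points (q = 0.000851, Fisher's exact test).

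Fragment B was deeply read, with 38 to 79 reads a site in 9 tissues, and varied less. Its 8 CG sites had medians of 62.3 % in ileum, 62.3 % in lactating mammary gland and 70 % in uterus. The medians were 73.0 % in nucleated blood cells, 77.8 % in frontal cortex and 85.5 to 87.5 % in the other 5 tissues. At 66882113 lactating mammary gland was lowest with 34.5 % and testis highest with 86.3 % (51.7 points apart, q = 5.85e-06, Fisher's exact test). Its neighbour on the other strand, 66882114, was the single site of the 83 at which testis lay at least 10 points above every other tissue, with 86.4 % against 37.1 to 76.3 %.

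The same fragment held a CHH cytosine that split the tissues in a different way. At 66882091, on the reverse strand, no methylated read was found among 60 reads in testis, 60 in uterus and 56 in nucleated blood cells, which allows up to 5 % in the first pair and 5.36 % in blood, and skeletal muscle had 2.63 %. The 6 others lay between 36.8 % (ileum) and 62.5 % (abomasum, 8 reads). No tissue lay between 2.63 and 36.8 %, and this order was not that of the CG sites around it, where testis and rumen were both high. It was a differentially methylated cytosine in 23 of 45 pairs. Its CHH label follows the reference sequence, and whether the animals differed in sequence at this position was not tested.

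2 further clusters were low to intermediate and graded. Fragment D averaged 1.25 % in frontal cortex and 7.62, 8.81 and 11.9 % in mammary gland parenchyma, rumen and lactating mammary gland. It averaged 24.6 % in uterus, 28.3 % in nucleated blood cells and 35.6 % in skeletal muscle, the highest here, whereas in fragments C and G muscle was lowest. The cluster of fragment F (68047084 to 68048330, 56 CG sites, of which 26 were covered in at least 7 tissues) showed the same ends, with 8.26 % in frontal cortex and 33.0 % in skeletal muscle. Within it the site 68047209 was at 0 of 42 reads in frontal cortex and 32.7 % of 52 reads in uterus (q = 0.00369, Fisher's exact test). Another, thinly read cluster (68125219 to 68125265, at most 18 reads a site) was high in rumen and lower in nucleated blood cells and lactating mammary gland. Rumen was not alone, as on the reverse strand skeletal muscle had 87.5 to 100 % and mammary gland parenchyma 66.7 to 93.3 %. Frontal cortex had 100 % on the reverse strand and 33.3 to 88.9 % on the forward strand. At 68125219 rumen had 94.4 % of 18 reads, blood 0 of 10 reads (q = 0.000159, Fisher's exact test) and lactating mammary gland 20 % of 15 reads (q = 0.00451, Fisher's exact test). Rumen was called higher at 3 sites in each of these pairs.

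The mean of each unmethylated cluster stayed low in each tissue with all sites covered. The largest began at 66816910 (67 CG sites, of which 40 were covered in at least 7 tissues and averaged 3 to 4.44 %) and at 66818478 (41 sites, of which 34 averaged 0.618 to 1.48 %). In the first of these, 66817018 had no methylated read in frontal cortex and 27.9 % in nucleated blood cells (q = 0.00418, Fisher's exact test). Those at 67094877, 68149721, 68154471 and 68335009 stayed at or under 7.74 %. At 67617817 nucleated blood cells stood at 13.5 % and the 8 other tissues at 0.894 to 7.8 %. Fragment H contained 1 site apart from its neighbours: 68507390 was methylated at 92.0 to 100 % in the 9 tissues that covered it, while the other 14 sites of the cluster covered as widely were at 0 to 12.5 % in each tissue. The 103 values of 0 among these rested on 16 to 48 reads, which allow levels of up to 18.8 and 6.25 %. A CHH cytosine 5 bp further on, 68507395, was at 93.3 to 100 % in 8 tissues. Both lie before the CCGG of the fragment. Further CG sites shortly before a CCGG stood apart in the same manner. The first site of the cluster at 66816910 was at 70 to 100 % in 10 tissues (70 % of 10 reads in abomasum), and in the methylated cluster at 68347627 the first site was at 0 to 5.56 % in 7 tissues while the others were at 85.7 to 100 %. Whether such bases beside a cut were filled in at the fragment ends or read from adapters was not tested, so their levels may not be those of the genome.

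In testis, the mean level at commonly covered window sites lay within the range of the 9 other tissues, while at other autosomal sites testis was the lowest of the 10. At the 83 sites testis had 21.2 % and the others 19.7 % on average (17.6 to 22.2 %), a difference of 1.53 points (exact permutation of 1 against 9 tissues, p = 0.4, where the smallest possible p is 0.1). At the other autosomal sites testis had 24.1 % and the others 28.7 % (27.0 to 31.8 %), a difference of -4.55 points (p = 0.1, exact permutation). The window minus the other sites thus came to -2.9 points in testis and to -8.98 points on average in the other tissues (-10.9 to -6.35). These differed by 6.07 points (exact permutation p = 0.1, which this design cannot go under). Without the 3 commonly covered sites of fragment G the testis difference in the window was 0.12 points, and at a minimum of 10 reads it was -0.63 points.

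Site by site, few CG sites of the window put testis outside the range of the others. Testis lay at least 10 points above the highest other tissue at 1 of 83 sites and at least 10 points below the lowest at 0 of 83, against 0.504 % and 9.24 % of autosomal sites. With sites covered in testis and at least 5 others, it lay above at 2 of 230 (0.845 % of autosomal sites) and below at 6 of 230 (8.3 % of autosomal sites). The mean difference of testis from the median of the others at these 230 sites was -0.69 points, against -3.80 points over the autosomes.

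Of the 6 sites below the range, 66882361 and 66882324 lay in the cluster of fragment B, outside the fragment, with 9 reads each in testis. At 66882361 testis was at 22.2 % and 5 others at 87.5 to 100 %, which was -77.8 points from their median, and at 66882324 testis was at 88.9 % and 5 others at 100 %. The other 4 sites were in fragment I, near the end of the window. Its 10 CG sites averaged 77.7 % in testis, 86.3 % in skeletal muscle and 90.3 to 98.4 % in the 7 other tissues with all sites covered. The gap to the lowest other tissue was widest at 68529384, where testis had 64.9 % and the 8 others 95.6 to 100 %. At 68529412 testis had 55.6 % of 36 reads, against 75 % in muscle and 98.0 % of 51 reads in nucleated blood cells (-42.5 points from blood, q = 5.01e-05, Fisher's exact test). Yet at 68529381, on the forward strand, all 29 testis reads were methylated. The other strand of that dyad, 68529382, had 67.6 % of 37 reads in testis. At this dyad the departure thus differed between the strands, which are read by different reads. Of the 4 sites below the range, 3 were on the reverse strand.

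Over the 19 clusters with at least 3 sites covered in testis and 5 others, testis was above every other tissue in 3, below every other in 4, and within 5 points of their median in 12. After fragment G (40.2 points above the median of the others, site by site), the differences were -16.7 points in fragment A, -16.0 in fragment I, -12.6 at 68567566 and -8 in the cluster of fragment F. They were -6.35 at 68398385, 5.67 at 67247447, 4.80 in fragment C and -4.57 in the cluster of fragment B. In that cluster testis was higher at 6 sites, all in fragment B, and lower at 6, among them the 4 sites outside the fragment that were read 9 times in testis. At 67247447, testis had 96.1 % against 88.2 to 93.5 %. At 67617817, the tenth by size, testis was 2.20 points higher. The sites at 68567566 had a median of only 9 reads in testis.

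A differentially methylated cytosine (DMC) had q below 0.01 in Fisher's exact test of a pair of tissues and levels at least 25 points apart. Among cytosines covered in all 10 tissues, 6 of 83 window CG sites were DMCs in a pair with testis, against 16.3 % of CG sites over the whole genome, and 10 of 83 in any of the 45 pairs, against 19.8 %. All 10 lay in the clusters of fragments B, F and G, with 4, 3 and 3 sites. Of 139 non-CG cytosines, 1 was a DMC (66882091), both with testis (0.405 % in the genome) and over all pairs (0.551 %). With abomasum left out, the window's DMCs of any context rose from 11 to 22, and with reads thinned to the lowest coverage at a site 1 was left.

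When only the 2 tissues of a pair had to be covered, 14 of 271 CG sites were DMCs with testis (11 % in the genome) and 37 of 425 over all pairs (9.09 %). Testis was higher at all 4 sites of fragment G against muscle. It was higher there at 2 sites against frontal cortex, 2 against lactating mammary gland and 1 against mammary gland parenchyma. Testis was also higher at 3 sites of fragment B. It was lower at 2 sites of fragment A, 3 of fragment I and 2 of the cluster at 68474261. Among the other pairs, rumen and lactating mammary gland differed at 11 sites, all higher in rumen. Lactating mammary gland and mammary gland parenchyma had 0 DMCs among 345 sites tested, while each had 7 against frontal cortex. Mammary gland parenchyma was lower than nucleated blood cells at 8 sites, among them 68568164 with 45.8 and 100 %. Shares over the genome were not computed for single pairs, so whether these counts are particular to the window is not known.

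The strands of a CG dyad differed in testis more often than in other tissues. A dyad methylated symmetrically has like levels on both strands, and in testis the levels were at least 50 points apart at 32 of 160 window dyads (20 %), against 13.1 % of autosomal dyads in testis. In the 9 other tissues together this was seen at 4 of 941 window dyads, 3 of them in frontal cortex. Over the autosomes these tissues had from 1.01 % (rumen) to 2.84 % (abomasum) of dyads so far apart. All 4 window dyads were apart in testis too, in the same direction. At 68414380 frontal cortex had 18.2 % forward and 100 % reverse. At 67068641 ileum had 75 % forward and 25 % reverse, and testis 71.4 and 21.1 %. Within testis, such a gap was seen at 22 of 59 dyads covered in testis only and at 10 of 101 covered elsewhere too. Examples in testis are 67068625 (93.8 % forward, 0 % of 14 reads reverse) and 68414380 (11.1 % forward, 93.8 % reverse). At 68474267 the forward strand was fully methylated in 12 reads and the reverse strand had 0 of 11, and on that reverse strand 2 non-CG cytosines nearby (68474290 and 68474300) were at 73.3 %, where lactating mammary gland had 0 %. Whether reads of the testis library, or of frontal cortex and ileum, were placed correctly at such dyads was not tested. Many of the testis dyads were covered in no other tissue.

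**Figure D5:**
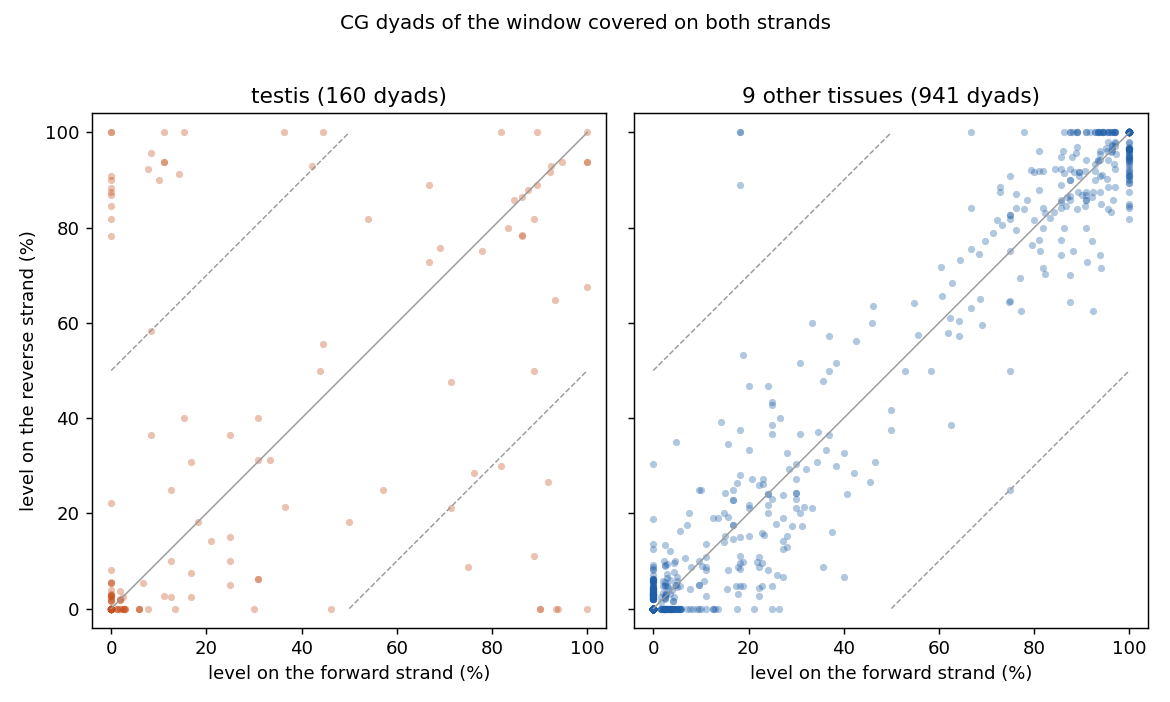
Level on the reverse strand (%) against level on the forward strand (%) for each CG dyad of the window covered on both strands, in testis (160 dyads, left) and in the 9 other tissues (941 values, right). The solid line marks equal levels and the dashed lines a gap of 50 points. In testis 32 dyads lie on or beyond the dashed lines, and in the others 4.

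Non-CG cytosines of the window were nearly unmethylated. Of 3970, 3249 (81.8 %) had no methylated read in any tissue, and tissue means ran from 0.686 % (abomasum) to 1.39 % (rumen). A level of at least 0.20 in 3 or more tissues was found at 6 of 923 (0.65 %), against 1.08 % of autosomal non-CG cytosines. Besides 66882091, these were 66854323, 66857273, 67275248, 68347624 and 68507395, with medians of 95.2 to 100 % over tissues. Of these 5, 4 were CHH cytosines 2 bp before a CG of an MspI site, as shortly before the first CG of fragment A. Whether these were filled-in or adapter bases was not tested, and they are not given as methylated non-CG cytosines of the genome.

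The letters TGCCGC, which occur in the recognition sequence of ZFP57, a zinc finger protein that protects imprinted methylation, were searched on both strands around covered dyads. They were found at 13 of 561 window dyads (2.32 %) and at 1.78 % of autosomal dyads. Of the 13, only 68047148 and 68047214 were covered in more than 1 tissue, both in the cluster of fragment F, with median levels of 17.8 and 16.2 %.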

How the data were processed

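RRBS libraries of 10 bovine tissues, 1 each, were analysed. The authors aligned reads to UMD3.1 with a pipeline built on SOAPaligner and deposited, where a cytosine had 8 or more reads, their count without normalization and the level as a fraction of methylated reads. The p-value and FDR columns that the authors deposited for each cytosine were not used. Methylated reads were recovered as level times reads. Levels were averaged over sites without weights, and Fisher's exact test gave the DMCs of each pair, with Benjamini-Hochberg adjustment over the genome. Tissues were compared by exact permutation. Calling of DMCs and runs was tested on simulated data. Sequences were joined from the deposited 5-base contexts.

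Named were all runs, the 10 clusters with the largest testis difference, clusters with DMCs, the 5 largest clusters, and non-CG cytosines at 0.20 or more in 3 tissues. Members and lists were chosen with earlier results of these data known. Fragment D, further unmethylated clusters and the single sites shown were picked after their values were seen. With 1 library per tissue, tests compare libraries, and differences between animals, sexes and ages cannot be told apart from tissue. Analyses ran in Python 3.11.15 (NumPy 2.4.6, SciPy 1.17.1, pandas 2.3.3). Alternatives covered coverage, weighting, thresholds, left-out tissues and thinned reads.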

Additional observations from a re-analysis of the deposited data

How the results depend on the processing

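The lower level of the window kept its direction and stayed past the threshold under 6 of 7 alternatives. It reversed to 5.33 points when each tissue used every CG site it covered, and leaving out abomasum or testis gave -8.27 to -4.75 points. The share of sites at 30 to 70 % was lower by -4.76 points (exact permutation p = 0.0293) at a minimum of 10 reads and by -13.2 points (p = 0.00195, exact permutation) when weighted by reads, and leaving out abomasum or testis gave -1.43 to -0.11 points. The testis difference in the window reversed to -0.63 points at 10 reads and -3.62 points when weighted by reads, and was -0.43 points without abomasum. Without fragment G, an alternative chosen after seeing the data, it was 0.12 points. Runs stayed at 0 under 12 of 13 alternatives, leaving out abomasum or testis included, and 1 run appeared at 50 % of tissues. DMCs with testis numbered 7, and 1 with thinned reads, 13 without abomasum and 17 with sites covered in both tissues of a pair. DMCs over all pairs numbered 11, and 7 at 40 points, 1 with thinned reads, 22 without abomasum and 40 with sites covered in both tissues. Sites with testis outside the range numbered 1, and 0 at 25 points and 8 with testis and at least 5 others. The causes of these changes were not tested, except that more sites enter without abomasum or with pairwise coverage.

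No site of the window had 20 reads in all 10 tissues, so that minimum gave no value for levels, DMCs or testis range. No paired analysis was possible because each tissue had 1 library. Abomasum, with at most 17 reads a site, limits every comparison over all 10 tissues, and a level at 8 reads moves in steps of 1 read.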
